A study of Homo sapiens with 18 samples.

Results

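The comparison described here is between timepoint 3 and timepoint 2 of MCF10A cells kept in 2D culture. It rests on 6 of the 18 libraries of the series: the 3 columns of the raw count table labelled 2D timepoint 3 and the 3 labelled 2D timepoint 2, paired by replicate number. MCF10A is an established line of immortalised, non-malignant human breast epithelial cells, and poly-A RNA was sequenced. All groups were plated sparsely on compliant polyacrylamide gels coated with Matrigel, a laminin-rich basement membrane extract, at 50 µg/ml, in medium with horse serum, EGF, insulin, cholera toxin and hydrocortisone. The 2D groups then received fresh medium, and the 3D groups received medium with 2% Matrigel. The protocol lists harvests 3, 12 and 21 h after plating, so that timepoints 2 and 3 are read as 12 and 21 h by their order alone. The model is 1 cell line, and the labels do not say whether replicates were separate cultures. The p-values below therefore measure the spread between these samples, which may be technical.

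A cell that divides passes through DNA synthesis (S phase) and mitosis, and many genes needed for each step are transcribed shortly before it. Factors of the E2F family act on promoters of S phase genes, and promoters of mitotic genes often carry CCAAT boxes and an element named the cell cycle genes homology region (CHR). Stress at the endoplasmic reticulum or a shortage of amino acids raises the translation of the transcription factor ATF4, which acts on genes of amino acid supply and on DDIT3, ATF3 and TRIB3.

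Of 18111 genes tested with edgeR, 17 changed between timepoints 2 and 3 in 2D culture at an adjusted p under 0.05 (0.0939%). Of these, 13 were higher at timepoint 3 (0.0718%) and 4 were lower (0.0221%). The higher genes included BIRC5, CKS1B and UBE2S, which act in mitosis, MCM7, FEN1 and TK1, which act in DNA synthesis, and the tubulin genes TUBA1B, TUBA1C and TUBB4B. The lower genes were APOBEC3B, MYL9, MILR1 and the long noncoding RNA AL118508.1. At an unadjusted p under 0.05, 903 genes were higher (4.99%) and 773 lower (4.27%), and the median log2 fold change over all tested genes was 0.0029.

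One of the 6 libraries stood apart from its label, so the calls, the gene lists and the log2 fold changes of the named genes are given with and without it. The library labelled 2D timepoint 3 replicate 1 is absent from the deposited log2 CPM table, which holds the other 17 libraries. Its Pearson correlation of log2 CPM across genes was 0.987 with 3D timepoint 3 replicate 1, which shares its replicate number. The correlation was 0.98 and 0.978 with 3D timepoint 3 replicates 2 and 3, and 0.982 with 2D timepoint 2 replicate 1. The other libraries labelled 2D timepoint 3, of other replicate numbers, were at 0.964 and 0.973. In a fit without this library, 1813 of 18592 genes (9.75%) differed between 3D and 2D at timepoint 3, and 1812 of these were also tested with 18 libraries. On a scale where 0 is the mean of 2D timepoint 3 replicates 2 and 3 and 1 is the mean of the 3D timepoint 3 libraries, its median position over those 1812 genes was 0.82. No replicate 1 library enters the 0 of this scale, so culture and replicate number are mixed in the scale. The 3D timepoint 3 libraries lay at 1.15, 0.7 and 1.15, and the 2D timepoint 2 libraries at 0.37, 0.01 and 0.35. It lay nearer to the 3D mean in 81.4% of those genes. The share of its counts from mitochondrially encoded genes was 0.783%, above the 0.398% to 0.533% of the 3D timepoint 3 libraries. That share was also above the 0.684% and 0.589% of 2D timepoint 3 replicates 2 and 3. Whether the label of this library is right was not tested.

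**Figure D1:**
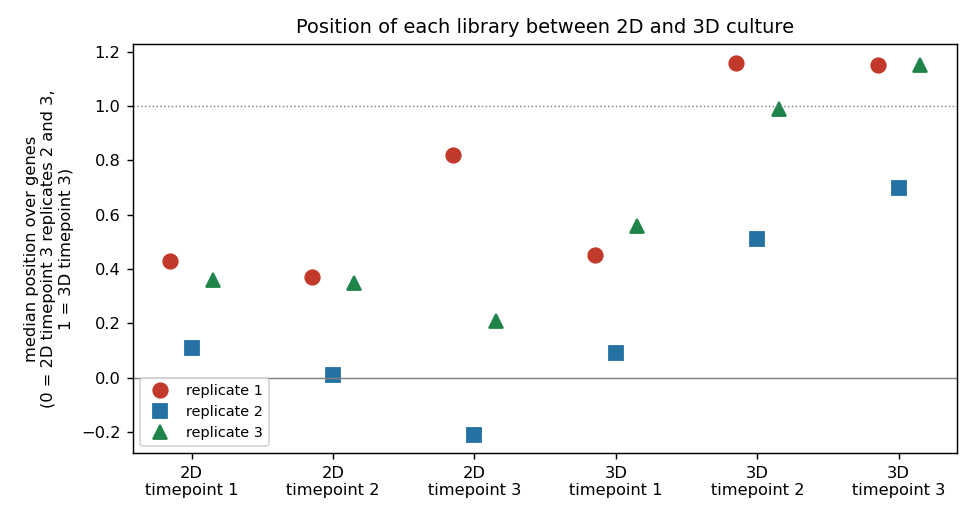
Median position of each of the 18 libraries between 2D and 3D culture at timepoint 3, over 1812 genes that differed between the cultures in a fit without the library labelled 2D timepoint 3 replicate 1. The y axis is 0 at the mean of 2D timepoint 3 replicates 2 and 3 and 1 at the mean of the 3D timepoint 3 libraries, and marker shapes give the replicate number. The library labelled 2D timepoint 3 replicate 1 sits at 0.82, above every other 2D library.

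Without that library edgeR called 7 of 18592 genes (0.0377%), 5 higher (0.0269%) and 2 lower (0.0108%). Both fits called BIRC5, UBE2S, TUBA1B-AS1, APOBEC3B and MILR1. All 17 genes called with 18 libraries kept their sign without it. This is not a separate test, because the 2 fits share 17 libraries and these genes had 1 sign in all 3 pairs. The 2 genes called only without it were DDIT3 and TRIB3, targets of ATF4. The calls also rest on the other libraries and on the model: edgeR called 0 genes without 2D timepoint 2 replicate 1, 3 without 2D timepoint 2 replicate 2, 7 without 2D timepoint 2 replicate 3, 11 without 2D timepoint 3 replicate 2 and 4 without 2D timepoint 3 replicate 3. With no replicate block it called 0 genes, with 797 at an unadjusted p under 0.05, and with the 6 libraries alone it also called 0, with 1881 at an unadjusted p under 0.05.

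**Figure D2:**
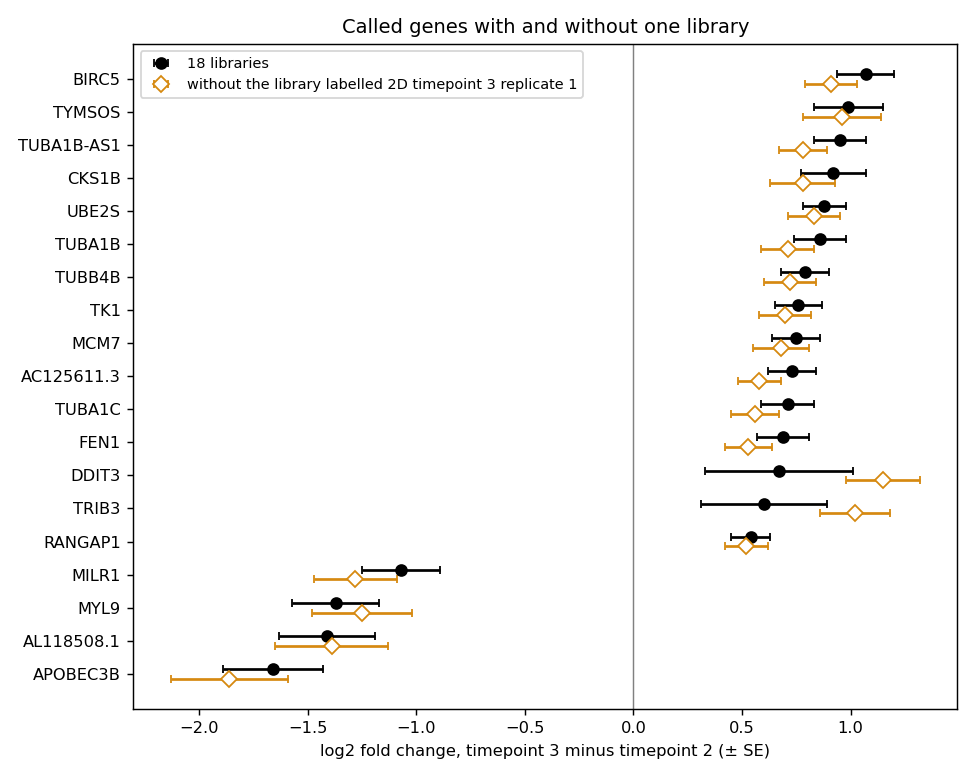
Log2 fold change, timepoint 3 minus timepoint 2 in 2D culture, of the 19 genes called with 18 libraries or with 17, with bars of ± 1 SE from edgeR. Filled circles are the fit of 18 libraries and open diamonds the fit without the library labelled 2D timepoint 3 replicate 1. DDIT3 and TRIB3 move from 0.67 and 0.60 to 1.15 and 1.02, and the other 17 genes stay on their side of 0. The 2 fits share 17 libraries.

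BIRC5, survivin, is a subunit of the chromosomal passenger complex of mitosis and an inhibitor of apoptosis (hg38 chr17:78214186-78225636). Its level in CPM, the count scaled to the TMM-adjusted size of its library, was 35.9, 32.8 and 47.6 in timepoint 2 replicates 1, 2 and 3, and 94.4, 59.3 and 90.3 in the libraries labelled timepoint 3. The mean rose from 38.8 ± 7.83 to 81.3 ± 19.2 CPM (SD, n = 3 each). The groups did not overlap, as for 5.7% of all tested genes in this direction, and the rule that named this gene asked for that. The log2 fold change was 1.07 ± 0.13 (SE, adjusted p = 0.00594), and 0.91 without the library labelled 2D timepoint 3 replicate 1 (adjusted p = 0.0323). UBE2S, the enzyme that extends ubiquitin chains for the anaphase-promoting complex (chr19:55399745-55407788), was at 15.6, 17.7 and 20.0 CPM at timepoint 2 and 32.1, 29.9 and 36.2 CPM at timepoint 3. All 3 timepoint 3 libraries were above all timepoint 2 libraries. Its log2 fold change was 0.88 ± 0.10 (SE, adjusted p = 0.00594), and 0.83 without that library (adjusted p = 0.0323). CKS1B, a small subunit that binds cyclin-dependent kinases (chr1:154974681-154979251), was at 7.96, 6.92 and 9.38 CPM and then at 17, 12.2 and 16.5 CPM. Its groups did not overlap and its log2 fold change was 0.92 ± 0.15 (SE, adjusted p = 0.026), but it missed the threshold without that library (0.78, adjusted p = 0.117).

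**Figure D3:**
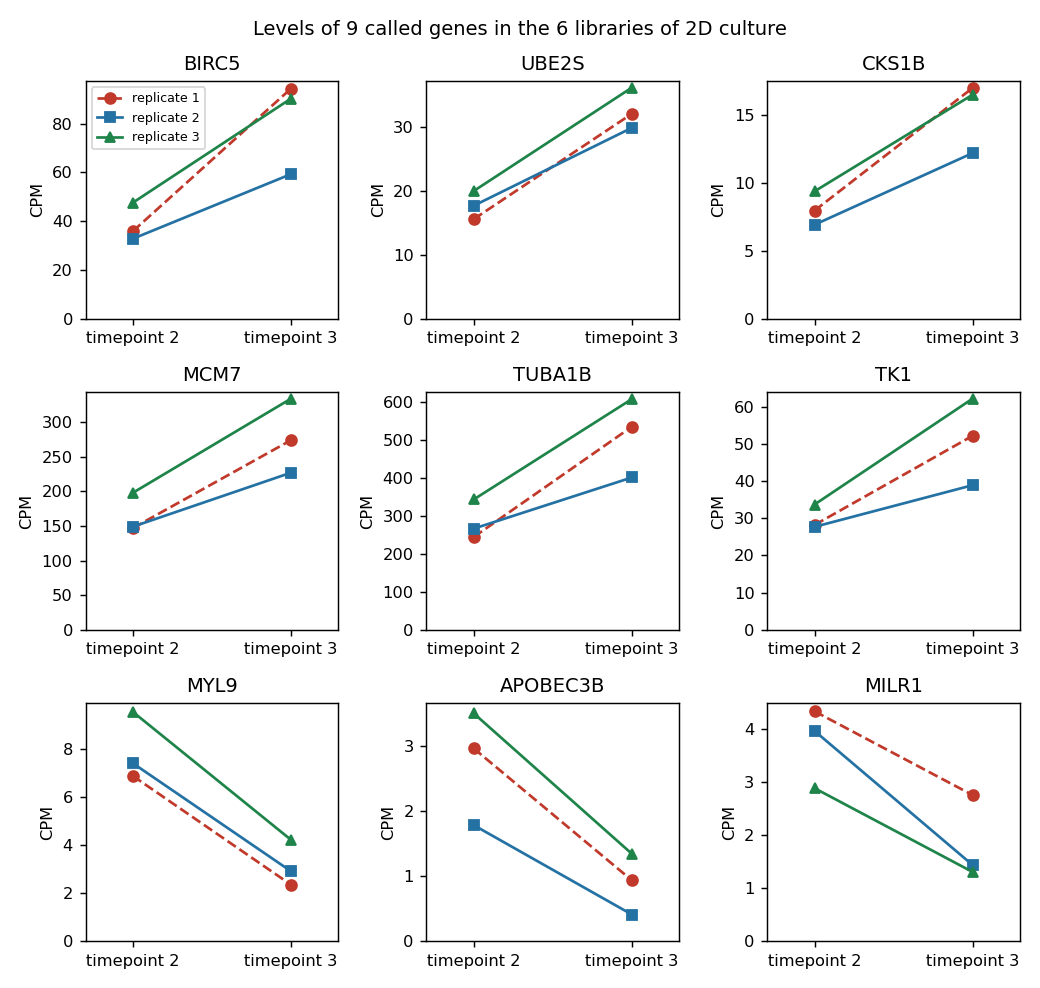
CPM of 9 called genes (y axes, linear from 0) at timepoints 2 and 3 of 2D culture, with one line per replicate number. The dashed line is replicate 1, which ends in the library labelled 2D timepoint 3 replicate 1. In each panel the 3 timepoint 3 values lie on one side of the 3 timepoint 2 values, as the rule that named these genes asked.

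Promoters of 4 of the called genes are shown because they hold letters of elements known from cell cycle genes. Each line gives the 250 bases before the RefSeq transcript start (GRCh38.p14), 5′ to 3′ on the strand of the gene, and capitals mark motif matches on either strand of the CCAAT box (letters CCAAT), the CHR (letters TTTGAA), the cAMP response element or CRE (letters TGACGTCA) and E2F (letters TTTGGCGC, or else TTTCCCGC, or else TTTCGCGC). The positions are chr1:154974431-154974680 (plus strand) for CKS1B, chr19:55407789-55408038 (minus strand) for UBE2S, chr9:137241037-137241286 (plus strand) for TUBB4B and chr7:100101398-100101647 (minus strand) for MCM7.
CKS1B: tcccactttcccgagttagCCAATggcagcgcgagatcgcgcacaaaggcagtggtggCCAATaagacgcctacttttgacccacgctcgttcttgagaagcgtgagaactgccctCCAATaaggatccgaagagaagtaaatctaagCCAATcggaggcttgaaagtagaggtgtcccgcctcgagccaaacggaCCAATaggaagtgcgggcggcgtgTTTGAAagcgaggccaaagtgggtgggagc
UBE2S: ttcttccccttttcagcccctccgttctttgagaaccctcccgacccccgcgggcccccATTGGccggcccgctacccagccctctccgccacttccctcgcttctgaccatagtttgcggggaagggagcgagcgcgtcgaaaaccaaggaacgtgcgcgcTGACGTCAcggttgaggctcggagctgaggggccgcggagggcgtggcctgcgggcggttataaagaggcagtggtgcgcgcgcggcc
TUBB4B: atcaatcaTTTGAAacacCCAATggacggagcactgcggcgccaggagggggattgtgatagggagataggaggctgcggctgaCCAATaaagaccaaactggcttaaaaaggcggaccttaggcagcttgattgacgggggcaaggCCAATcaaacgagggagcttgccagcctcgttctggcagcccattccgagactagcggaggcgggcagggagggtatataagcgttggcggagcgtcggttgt
MCM7: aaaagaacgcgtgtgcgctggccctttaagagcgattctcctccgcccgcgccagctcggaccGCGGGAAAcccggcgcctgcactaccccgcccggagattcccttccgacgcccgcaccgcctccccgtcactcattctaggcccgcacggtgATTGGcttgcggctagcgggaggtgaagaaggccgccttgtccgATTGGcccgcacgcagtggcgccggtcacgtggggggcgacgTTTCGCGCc

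CKS1B held 5 CCAAT boxes and 1 CHR, TUBB4B held 3 CCAAT boxes and 1 CHR, UBE2S held 1 CCAAT box and 1 CRE, and MCM7 held 2 CCAAT boxes and 2 E2F matches. None of the marked matches in these 4 windows overlap. Of the 13 higher genes, 11 had a promoter in the RefSeq table, and BIRC5 and AC125611.3 had no entry, nor had the 4 lower genes. The 11 windows are placed by RefSeq starts, which do not always match the gene starts of the deposited table. The TUBA1C window (chr12:49227676-49227925) and the RANGAP1 window (chr22:41302370-41302619) lie well upstream of the deposited genes, and the MCM7 window lies inside the deposited gene. The TUBA1B-AS1 window (chr12:49131356-49131605) lies at the far end of the deposited gene and overlaps the TUBA1B window, so the 11 are not separate promoters. Among the 11, a CCAAT box was in 6, a CHR in 4, with TUBA1C counted in both, an E2F match in 1 and a CRE in 1. Among all 35116 promoters of that length, the shares were 32.0% for the CCAAT box, 13.3% for the CHR, 2.32% for any of the 3 E2F spellings and 1.65% for the CRE. The AP-1 motif TGANTCA (6.57% of all promoters) and the C/EBP-ATF core TGATGNAAN (3.13%) had no match in the 11. The CCAAT, CHR and E2F letters were chosen after the called genes were known, and a match is a description of these letters.

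Genes of G2 and mitosis stood above 0 as a list, with 3 of 32 called higher (BIRC5, CKS1B and UBE2S). All 32 had a log2 fold change above 0, against 50.5% of all tested genes, and 19 of 32 were higher at an unadjusted p under 0.05, against 4.99% (11 of 32, against 5.3%, without the library labelled 2D timepoint 3 replicate 1). The median was 0.65 with 18 libraries and 0.42 without that library, where 26 of 32 were above 0 (48.1% of all tested genes). The pairs differed: the median log2 difference was 1.16 in pair 1, which holds that library, 0.44 in pair 2 and 0.41 in pair 3. PLK1, the polo-like kinase of mitotic entry, was at 46.4, 44.3 and 58.5 CPM at timepoint 2 and 120, 78.8 and 113 CPM at timepoint 3. CDC20, the activator of the anaphase-promoting complex, was at 49.3, 45.7 and 58.7 and then 107, 70.9 and 107 CPM. Neither overlapped between timepoints, and neither passed the test: the log2 fold change was 1.06 for PLK1 and 0.88 for CDC20 (adjusted p = 0.179 and 0.106), and 0.94 and 0.82 without that library (0.305 and 0.247). UBE2C, the ubiquitin-conjugating partner of that complex, also did not overlap and did not pass (log2 fold change 0.80, adjusted p = 0.0888, and 0.64, 0.247 without that library).

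Within the mitotic list, the 16 genes with the longer transcripts had a median log2 difference of 1.24, 0.48 and 0.07 in pairs 1, 2 and 3, and the 16 with the shorter ones 1.09, 0.41 and 0.50, so that the 2 sets lay apart mainly in pair 3. The 4 members described next, chosen after their values were seen, have long transcripts and were below 0 in pair 3. Many other members were above 0 in that pair, up to 0.95 for PLK1. CENPE, a kinetochore motor, was at 6.39, 1.68 and 5.32 CPM at timepoint 2 and 18.8, 1.02 and 2.38 CPM at timepoint 3. The pair with the library labelled 2D timepoint 3 replicate 1 was higher by 1.55 on the log2 scale, and pairs 2 and 3 were at -0.70 and -1.15. CENPF, a large kinetochore protein, differed by 1.3, 0.09 and -0.86, and MKI67, the Ki-67 antigen of cycling cells, by 1.29, 0.48 and -0.10 in pairs 1, 2 and 3. TOP2A, topoisomerase II alpha, differed by 1.36, 0.38 and -0.31. None of these 4 passed the test in either fit, and without that library the log2 fold change was -1.03 for CENPE, -0.57 for CENPF, 0.09 for MKI67 and -0.028 for TOP2A. Across the 32 genes, the Spearman correlation between the longest annotated transcript and the pair difference was 0.41 in pair 1, -0.17 in pair 2 and -0.50 in pair 3. Over all 17929 tested genes with a known length it was 0.01, -0.10 and -0.24. These are correlations across genes, which are not independent replicates, within pairs of libraries that also differ in other ways. The part of transcript length in these values was not tested beyond a length offset, under which the list median was 0.63 with 18 libraries and 0.40 with 17.

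**Figure D4:**
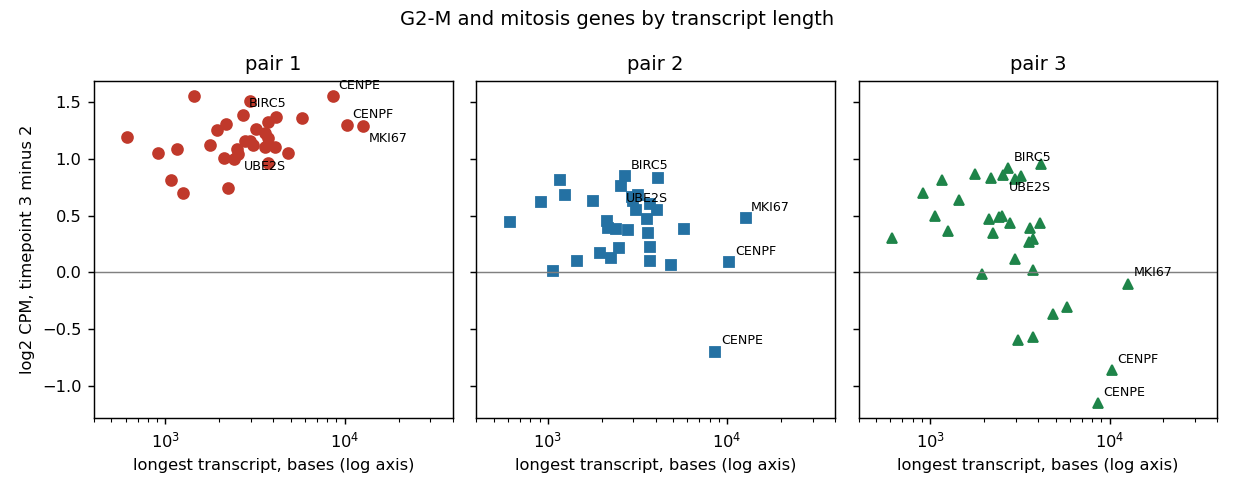
Difference in log2 CPM, timepoint 3 minus timepoint 2 (y axis), of the 32 G2 and mitosis genes against the length of their longest annotated transcript (x axis, log scale), in one panel per replicate pair. In pair 1 all points are above 0. In pair 3 CENPE and CENPF are at -1.15 and -0.86 while BIRC5 and UBE2S are at 0.92 and 0.86.

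Genes of the G1-S transition and DNA replication showed the same sign with a smaller median. With 18 libraries 2 of 36 were called higher, against 0.0718% of all tested genes (0 of 36, against 0.0269%, with 17). MCM7, a subunit of the replicative helicase (chr7:100092781-100101940), was at 147, 149 and 198 CPM at timepoint 2 and 274, 227 and 334 CPM at timepoint 3, without overlap. Its log2 fold change was 0.75 ± 0.11 (SE, adjusted p = 0.0174), and 0.68 without the library labelled 2D timepoint 3 replicate 1 (adjusted p = 0.115). FEN1, the flap nuclease that trims Okazaki fragments (chr11:61792911-61797238), was at 14.4, 13.4 and 18.7 and then 28.1, 19.1 and 27.8 CPM. The lowest timepoint 3 value of FEN1 exceeded the highest timepoint 2 value by little. Its log2 fold change was 0.69 (adjusted p = 0.0473), and 0.53 without that library (adjusted p = 0.143). All 36 list members had a log2 fold change above 0, against 50.5% of all tested genes (33 of 36, against 48.1%, without that library). At an unadjusted p under 0.05, 24 of 36 were higher, against 4.99%, and 13 of 36, against 5.3%, without that library. The median was 0.52 with 18 libraries and 0.30 with 17, and 0.83, 0.28 and 0.31 in pairs 1, 2 and 3. MCM2 and MCM3, further helicase subunits, had log2 fold changes of 0.67 and 0.60, and PCNA, the sliding clamp of DNA polymerases, 0.58, with no call (0.56, 0.52 and 0.41 without that library). CCND1, cyclin D1, was at 58.7, 57.1 and 63.4 and then 70.4, 58.6 and 57.3 CPM, a log2 fold change of 0.05 (-0.06 without that library) and within the spread between libraries.

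TK1, the thymidine kinase of S phase (chr17:78174091-78187052), was at 28.2, 27.7 and 33.7 CPM at timepoint 2 and 52.2, 38.9 and 62.2 CPM at timepoint 3. Its log2 fold change was 0.76 ± 0.11 (SE, adjusted p = 0.0135), and 0.70 without the library labelled 2D timepoint 3 replicate 1 (adjusted p = 0.0761). TYMSOS, a noncoding RNA that overlaps the start of the thymidylate synthase gene TYMS (chr18:649620-658340), was at 1.47, 2.03 and 2.46 and then 3.26, 3.89 and 4.54 CPM. TYMSOS rose by 0.99 ± 0.16 (SE) on the log2 scale (adjusted p = 0.0274), and differed by 0.96 without that library (adjusted p = 0.117). TYMS itself differed by 0.76 with an overlap between groups (adjusted p = 0.191), and by 0.56 without that library (adjusted p = 0.353). Whether reads were counted by strand is not known, so TYMSOS and TYMS cannot be told apart where they overlap. RANGAP1, the GTPase activator of the RAN transport system (chr22:41245611-41286251), was at 110, 122 and 123 CPM and then 166, 165 and 187 CPM. The RANGAP1 change of 0.54 ± 0.09 (SE, adjusted p = 0.0274) was the smallest among the called genes, and its 3 pairs were close to each other, with 0.52 and no call without that library (adjusted p = 0.117).

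Tubulins build microtubules and the mitotic spindle, and 3 tubulin genes rose. TUBA1B (chr12:49127786-49131395) was at 245, 267 and 344 CPM at timepoint 2 and 536, 402 and 609 CPM at timepoint 3, with a log2 fold change of 0.86 ± 0.12 (SE, adjusted p = 0.0135). TUBA1C (chr12:49264907-49274603) was at 242, 250 and 345 and then 493, 347 and 527 CPM, with 347 just above 345, and had a log2 fold change of 0.71 (adjusted p = 0.0298). TUBB4B (chr9:137241288-137243706) was at 153, 142 and 194 and then 295, 232 and 316 CPM, with a log2 fold change of 0.79 (adjusted p = 0.0128). The antisense genes TUBA1B-AS1 (0.95, adjusted p = 0.00685) and AC125611.3 (0.73, adjusted p = 0.0174) overlap TUBA1B and TUBA1C. No source used here says whether reads were counted by strand, so each antisense gene and its partner cannot be told apart. Tubulin genes also share near-identical sequence, which makes the split of reads between them uncertain. Without the library labelled 2D timepoint 3 replicate 1 the log2 fold change was 0.71 for TUBA1B (adjusted p = 0.0756), 0.56 for TUBA1C (0.117), 0.72 for TUBB4B (0.0656) and 0.58 for AC125611.3 (0.0806), with no call, and 0.78 for TUBA1B-AS1 (0.0323), which was called.

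Of the 4 genes that fell, APOBEC3B had the largest log2 change. APOBEC3B, a cytidine deaminase that edits DNA (chr22:38982399-38992804), was at 2.96, 1.78 and 3.50 CPM at timepoint 2 and 0.932, 0.406 and 1.34 CPM at timepoint 3. These timepoint 3 values are low, near the floor. Each replicate pair was lower and the groups did not overlap, as for 5.09% of all tested genes in this direction. The rule that named this gene asked for both. Its log2 fold change was -1.66 ± 0.23 (SE, adjusted p = 0.0135), and -1.86 without the library labelled 2D timepoint 3 replicate 1 (adjusted p = 0.0359). MYL9, a regulatory light chain of non-muscle and smooth muscle myosin (chr20:36541519-36551447), was at 6.87, 7.40 and 9.54 and then 2.34, 2.90 and 4.21 CPM. The MYL9 groups were well apart, with a log2 fold change of -1.37 ± 0.20 (SE, adjusted p = 0.0139), and -1.25 without that library (adjusted p = 0.103). MILR1, an immunoglobulin-like receptor known from mast cells (chr17:64449169-64467617), was at 4.33, 3.96 and 2.88 and then 2.75, 1.43 and 1.3 CPM, with 2.75 close to the lowest timepoint 2 value. Its log2 fold change was -1.07 ± 0.18 (SE, adjusted p = 0.0436), and -1.28 without that library (adjusted p = 0.038). AL118508.1 (chr20:23187975-23190307) was at 15.1, 21.4 and 12.1 and then 5.29, 6.20 and 6.75 CPM (log2 fold change -1.41, adjusted p = 0.0185, and -1.39, 0.117 without that library).

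MYL9 was the single call with 18 libraries among 34 tested genes of actin and myosin, against 0.0221% of all tested genes called lower. None of the 34 was called without the library labelled 2D timepoint 3 replicate 1. Their median log2 fold change was -0.06 (-0.05 without that library). Other light chains were close between timepoints: MYL6 differed by -0.08, MYL12A by 0.06 and MYL12B by -0.045 (-0.018, 0.043 and -0.11 without that library). FLNA, the actin crosslinker filamin A, was at 1765, 2047 and 1658 and then 1573, 1744 and 1694 CPM, and overlapped (log2 fold change -0.11, and -0.09 without that library). CCN1 and CCN2, targets of the YAP pathway, differed by 0.16 and -0.20 (0.07 and -0.12 without that library) and did not pass.

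All 13 mitochondrially encoded mRNAs were lower at timepoint 3 in each of the 3 pairs, and none passed the test after adjustment. They encode subunits of the respiratory chain and of ATP synthase. For 10 of 13 the groups did not overlap, against 5.09% of all tested genes in this direction, and 16.3% of all genes were lower in all 3 pairs. The 13 genes are not independent replicates, so these counts are not 13 separate observations. The share of counts from mitochondrially encoded genes was 1.18, 0.915 and 0.908% at timepoint 2 and 0.783, 0.684 and 0.589% at timepoint 3. At an unadjusted p under 0.05, 11 of 13 were lower with 18 libraries (4.27% of all genes) and 4 of 13 without the library labelled 2D timepoint 3 replicate 1 (4.83%). MT-ND4, a subunit of complex I, was at 1475, 1104 and 1060 CPM at timepoint 2 and 836, 737 and 642 CPM at timepoint 3. MT-CO1, a subunit of complex IV, was at 1291, 1236 and 987 and then 798, 885 and 711 CPM. MT-ND6 had the largest log2 fold change of the list, -0.78 ± 0.28 (SE, adjusted p = 0.381), and MT-ND3 the smallest, -0.37 (-0.83 and -0.44 without that library). The median was -0.59 with 18 libraries and -0.60 with 17, and -0.69, -0.48 and -0.57 in pairs 1, 2 and 3. In 3D culture the median over the same list was -0.12, with 0.71, -0.33 and -0.53 in the 3 pairs, and the difference between cultures was called for none of these genes. The 32 tested nuclear genes of oxidative phosphorylation had a median of -0.003. In these bulk samples, fewer cells of a kind and less RNA per cell cannot be told apart.

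**Figure D5:**
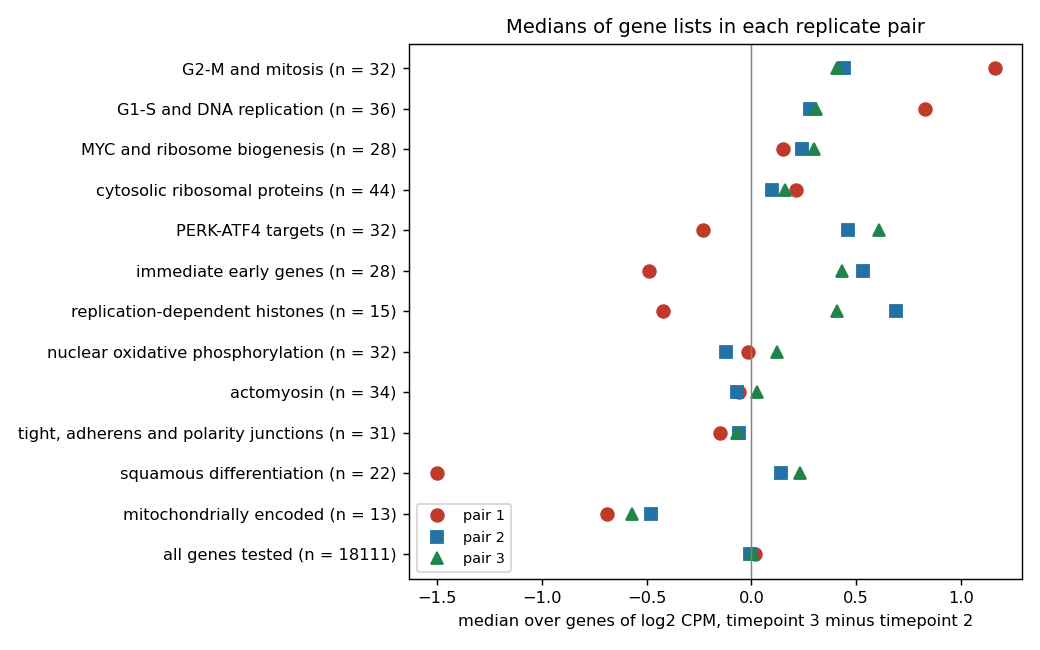
Median over the genes of each list of the difference in log2 CPM, timepoint 3 minus timepoint 2 (x axis), with one marker per replicate pair and the number of tested genes beside each list (y axis). The mitotic and replication lists lie above 0 and the mitochondrially encoded list below 0 in all 3 pairs. The ATF4 target, immediate early, histone and squamous lists lie below 0 in pair 1, which holds the library labelled 2D timepoint 3 replicate 1, and above 0 in pairs 2 and 3.

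Targets of ATF4 depended on the library labelled 2D timepoint 3 replicate 1. DDIT3, the stress transcription factor CHOP (chr12:57516593-57520517), was at 16.9, 17.2 and 16.3 CPM at timepoint 2 and at 9.32, 39.3 and 34.0 CPM at timepoint 3. Its first timepoint 3 value was below, and the others above, all timepoint 2 values. The log2 fold change was 0.67 ± 0.34 (SE, adjusted p = 0.585) with 18 libraries and 1.15 ± 0.17 (SE, adjusted p = 0.038) without that library. TRIB3, a pseudokinase that restrains ATF4 signalling (chr20:381021-397559), was at 37.0, 46.1 and 45.8 and then 24.0, 83.7 and 101 CPM. TRIB3 likewise passed without that library (1.02 ± 0.16, SE, adjusted p = 0.0415) and not with it (0.60, adjusted p = 0.557). ATF3, a partner of CHOP, was at 21.3, 27.5 and 29.6 and then 2.95, 80.6 and 71.9 CPM and passed in neither fit (log2 fold change 0.75, adjusted p = 0.791, and 1.44, 0.117 without that library).

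Of the 32 tested ATF4 targets, 6 were higher at an unadjusted p under 0.05 with 18 libraries (4.99% of all genes) and 20 without the library labelled 2D timepoint 3 replicate 1 (5.3%). The median was 0.31 with 18 libraries and 0.54 with 17, and -0.23, 0.46 and 0.61 in pairs 1, 2 and 3. The 11 short-lived and nuclear-retained RNAs listed as signs of RNA quality had pair medians of -0.48, 0.29 and 0.21, with the same signs in the 3 pairs, and their part in these values was not tested. Their summed level ranged from 2732 to 2880 CPM at timepoint 2 and from 2800 to 3104 CPM at timepoint 3. PHGDH, the first enzyme of serine synthesis, was at 198, 200 and 185 and then 172, 369 and 433 CPM, and ASNS, asparagine synthetase, at 95.4, 79.7 and 116 and then 60.1, 136 and 221 CPM. NUPR1, a stress cofactor, was at 28.1, 34.0 and 33.1 and then 18.5, 75.6 and 78.1 CPM, and PPP1R15A, which dephosphorylates the initiation factor eIF2, at 8.83, 9.06 and 8.49 and then 4.93, 22.7 and 18.2 CPM. In each of these 4 the first timepoint 3 library was below, and the others above, all timepoint 2 libraries, and none was called. The log2 fold changes with 18 and with 17 libraries were 0.72 and 1.08 for PHGDH, 0.48 and 0.90 for ASNS, 0.73 and 1.16 for NUPR1, and 0.68 and 1.14 for PPP1R15A. ATF4 itself was at 165, 177 and 179 and then 184, 241 and 272 CPM, without overlap (log2 fold change 0.40, and 0.50 without that library). SLC3A2 and SLC7A5, which form an amino acid transporter, differed by 0.41 and 0.31 (0.56 and 0.31 without that library) without overlap and without a call. XBP1, a transcription factor of the unfolded protein response, was at 85.0, 65.9 and 83.7 and then 92.4, 101 and 123 CPM (log2 fold change 0.45, adjusted p = 0.331, and 0.61, 0.15 without that library). HSPA5, the chaperone BiP, was at 65.5, 57.7 and 54.4 and then 77.7, 66.0 and 58.8 CPM, and overlapped (0.18, and 0.15 without that library). SQSTM1, the autophagy receptor p62, was at 990, 1067 and 707 and then 594, 1778 and 1361 CPM and did not pass (0.42, and 0.82 without that library).

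Immediate early genes, which growth factors and stress induce within minutes, split in the same way between the pairs. Of 28 tested, 2 were higher at an unadjusted p under 0.05 with 18 libraries, near the share of all genes (4.99%), and 13 without the library labelled 2D timepoint 3 replicate 1 (5.3% of all genes), and none was called. Of the 11 RNAs listed as signs of RNA quality, whose pair medians have these signs too, 4 (FOS, JUN, IER2 and ZFP36) are also on this list. The median was 0.22 with 18 libraries and 0.43 with 17, and -0.49, 0.53 and 0.43 in pairs 1, 2 and 3. FOS was at 41.6, 60.9 and 42.1 and then 19.8, 79.2 and 61.2 CPM, and FOSB at 15.4, 24.1 and 20.6 and then 3.50, 39.4 and 32.9 CPM. JUN, their partner in AP-1, was at 11.9, 13 and 10.3 and then 8.55, 26.3 and 19.1 CPM, and the factor KLF4 at 9.52, 11.2 and 9.99 and then 4.88, 21.9 and 16.9 CPM. EGR1 was at 16, 16.5 and 14.7 and then 12.4, 18.1 and 13.3 CPM and did not show this split. CDKN1A, the p53 target that inhibits cyclin-dependent kinases, was at 187, 206 and 188 and then 124, 264 and 268 CPM. The log2 fold changes with 18 and with 17 libraries were 0.048 and 0.43 for FOS, 0.06 and 0.63 for FOSB, 0.56 and 0.92 for JUN, 0.41 and 0.86 for KLF4, -0.13 and -0.10 for EGR1, and 0.15 and 0.45 for CDKN1A.

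Of the genes of epithelial junctions and squamous differentiation, none was called, and the 5 described here were lowest in the library labelled 2D timepoint 3 replicate 1. ELF3, an epithelial transcription factor, was at 17.3, 15.8 and 24.0 CPM at timepoint 2 and at 0.907, 12.3 and 17.1 CPM at timepoint 3. CLDN4, a tight junction claudin, was at 5.04, 6.29 and 10.8 and then 0.139, 3.23 and 8.45 CPM. Both were lower in each pair, and the first pair was far lower than the others: the log2 fold change of ELF3 was -1.22, and -0.56 without that library, and that of CLDN4 -1.38, and -0.73 without it. TJP3, a tight junction scaffold, was at 21.3, 25.6 and 21.7 and then 2.42, 29.4 and 20.4 CPM, and its log2 fold change of -0.67 became -0.06 without that library. CDH1, E-cadherin, was at 112, 149 and 147 and then 62.7, 110 and 107 CPM, and EPCAM at 26.1, 18.0 and 20.4 and then 11.7, 13 and 14.7 CPM. Neither CDH1 nor EPCAM overlapped between timepoints, and neither passed: the log2 fold changes were -0.58 and -0.69 (adjusted p = 0.381 and 0.359), and -0.53 and -0.52 without that library (0.489 and 0.51). Over 31 junction genes the median was -0.10 (-0.06 without that library), and over 22 squamous differentiation genes -0.24 (0.14 without it), with -1.50, 0.14 and 0.23 in pairs 1, 2 and 3.

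Several genes of cell identity and metabolism overlapped between the timepoints, and none was called in either fit. KRT5 and KRT14, the keratins of basal epithelium, differed by 0.15 and 0.36, and by 0.30 and 0.32 without the library labelled 2D timepoint 3 replicate 1. VIM, vimentin, differed by 0.15 (0.21 without that library), MT2A, a metallothionein, by 0.18 (0.047), and the growth regulator MYC by 0.16 (0.25). HMGCS1, an enzyme of sterol synthesis, was at 29.5, 29 and 45.4 and then 36.7, 19.1 and 25.0 CPM. Both remaining timepoint 3 libraries of HMGCS1 were below all timepoint 2 libraries, and its log2 fold change was -0.39, and -0.61 without that library (adjusted p = 0.436). All 11 basal epithelial markers had counts in all 6 libraries, with a summed level of 7177 to 9028 CPM at timepoint 2 and 6142 to 10606 CPM at timepoint 3. The fibroblast genes COL1A2, COL3A1 and PDGFRA were at 0 in all 6 libraries, but 4 to 7 of the 10 listed fibroblast genes had counts. The 7 were in the library labelled 2D timepoint 3 replicate 1, where alone POSTN had counts. Summed fibroblast markers were at 239, 246 and 155 CPM at timepoint 2 and at 305, 271 and 153 CPM at timepoint 3. The leukocyte genes PTPRC, CD3E, CD3D and MS4A1 were at 0 in all 6 libraries. Summed leukocyte markers ranged from 35.9 to 49 CPM at timepoint 2 and from 34 to 49.1 CPM at timepoint 3. Summed markers of hormone-receptor luminal epithelium were at 571, 597 and 553 CPM at timepoint 2 and at 308, 462 and 490 CPM at timepoint 3, without overlap, with PGR and ANKRD30A at 0 in all 6 libraries. Most of that sum was KRT8, a keratin of luminal epithelium, at 487, 541 and 482 and then 219, 409 and 426 CPM (log2 fold change -0.55, adjusted p = 0.514, and -0.29 without that library). All 6 tested members of that list had a log2 fold change below 0 (5 of 6 without that library), with a median of -0.10 and 0 called.

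The change from timepoint 2 to timepoint 3 was compared with that in 3D culture through the interaction of culture and time. For 0 of 18111 genes did the change differ at an adjusted p under 0.05 with edgeR, and 787 passed an unadjusted p under 0.05 (4.35%). Without the library labelled 2D timepoint 3 replicate 1 there were also 0 calls in edgeR, with 1399 at an unadjusted p under 0.05. With all 18 libraries DESeq2 called 3. In 3D culture itself edgeR called 0 genes between these timepoints, with 1782 at an unadjusted p under 0.05 (9.84%). The G2 and mitosis list had a median of 0.71 in 3D against 0.65 in 2D (0.42 in 2D without that library), with 0.61, 0.86 and 0.66 in the 3 pairs of 3D culture, and the G1-S list 0.30 against 0.52. In 3D the log2 fold change was 0.71 for PLK1, 0.80 for CDC20, 0.93 for TOP2A, 0.65 for BIRC5, 0.56 for CKS1B, 0.45 for UBE2S, 0.49 for MCM7, -1.35 for MYL9 and -1.13 for APOBEC3B. For TYMSOS it was 0.06 in 3D against 0.99 in 2D, with an interaction of 0.93 ± 0.22 (SE, adjusted p = 0.836). TYMS, whose reads cannot be told apart from those of TYMSOS where they overlap, was at 0.51 in 3D against 0.76 in 2D. DDIT3 was at -0.28 and TRIB3 at -0.10 in 3D. These values miss the threshold and do not show that the cultures acted alike.

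The preceding interval, timepoint 1 to timepoint 2 in 2D, shares the timepoint 2 libraries with the comparison above, so its values are only set beside it. In that interval edgeR called 2434 genes (13.4%), 1168 higher (6.45%) and 1266 lower (6.99%). BIRC5 fell by 1.19 on the log2 scale (adjusted p = 3.74e-05), MCM7 by 1.04, TK1 by 1.02, CKS1B by 1.08, UBE2S by 0.80 and TUBA1B by 0.79. The medians were -0.84 for the G2 and mitosis list and -0.48 for the G1-S list. APOBEC3B fell in that interval also, by 2.17 on the log2 scale, while MYL9 differed by 0.33 and MILR1 by -0.08 without a call. DDIT3 rose by 1.19 and TRIB3 by 1.36 between timepoints 1 and 2. The mitochondrially encoded list had a median of -0.026 there.

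The gene counts of the 6 libraries summed to 50 to 74.4 M (M for 1e+06 counts), while the library totals in the file headers were 9.31 to 14.5 M for 5 of them, with no total for the library labelled 2D timepoint 3 replicate 1. The sums exceed those totals, so that they are not read as depth, no counting interval is given, and CPM is not compared between genes.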

How the data were processed

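The authors deposited whole-number counts for 60662 genes in 18 libraries, with no normalisation, and log2 CPM values for 13677 genes in 17 libraries, which were used only to see which libraries the log2 table holds. The submitters' processing notes name STAR 2.7.1a, HOMER, edgeR, limma and hg38 without role or order. No source used here gives the annotation release, strand setting or counting mode. Groups and replicate numbers came from the sample labels.

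Counts were fitted in edgeR 4.0.16 (R 4.3.3) over all 18 libraries and 6 groups with the replicate number as a block, TMM scaling, filterByExpr by group and the quasi-likelihood F test, with a Benjamini-Hochberg adjusted p under 0.05. This left 10 residual degrees of freedom, or 9 without the library labelled 2D timepoint 3 replicate 1. Each SE was taken as the size of the log2 fold change over sqrt(F). The 2 sets of libraries were filtered separately. Each number carries one date in the labels, shared by all groups. Deviations from the group means correlated at 0.38, 0.36 and 0.16 within the 3 pairs of timepoints 2 and 3, and at 0.25 on average over 45 same-number pairs of libraries from different groups, against -0.13 for other numbers.

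Named genes were up to 12 protein-coding genes and 3 others per direction with the largest change among called genes (all pairs of one sign, CPM not overlapping, mean count of at least 50), up to 4 called genes per list, and 24 genes fixed by name, of which 1 is not reported here. Others, including list members given as examples, were chosen after their values were seen. The members of the comparison and the 48 gene lists (975 genes, 918 tested), written from general knowledge, were chosen with earlier results of these data known. Pair differences are of log2 CPM with a prior count of 2. Promoters are from RefSeq (GRCh38.p14), gene positions from the deposited table, and transcript lengths from GENCODE, known for 99% of tested genes. Alternatives used DESeq2 1.42.0 and limma 3.58.1. The edgeR steps were tested on simulated data.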

Additional observations from a re-analysis of the deposited data

Results flagged for a closer look

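For 2 gene lists the median moved one way in all 3 pairs of 2D culture and the other way in all 3 pairs of 3D culture. The difference between the cultures was not tested for a list, and no member passed the test of the interaction of culture and time. All 48 lists were looked at in this way.

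Of the 44 tested cytosolic ribosomal proteins, the median log2 difference between timepoints 3 and 2 was 0.21, 0.10 and 0.16 in pairs 1, 2 and 3 of 2D culture and -0.17, -0.43 and -0.51 in those of 3D culture, so that the means of the pair medians differed by 0.52. In 2D, 41 of 44 had a log2 fold change above 0 (35 without the library labelled 2D timepoint 3 replicate 1) and 30 were higher in all 3 pairs (18.3% of all tested genes), with 0 called and 0 at an unadjusted p under 0.05 in edgeR. RPS14 was at 2661, 4064 and 3568 CPM at timepoint 2 and 3710, 4756 and 4478 CPM at timepoint 3.

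The 26 tested inflammatory cytokines and chemokines had pair medians of 0.10, 0.39 and 0.06 in 2D and -0.35, -0.14 and -0.06 in 3D, a difference of means of 0.37. CXCL8 was at 5.14, 5.41 and 4.10 CPM at timepoint 2 and 7.79, 9.41 and 5.50 CPM at timepoint 3, and TNFAIP3 at 24.4, 45.1 and 24.2 and then 25.7, 76.8 and 42.6 CPM. In 2D no member was called, and without the library labelled 2D timepoint 3 replicate 1 the list median was 0.08 in place of 0.22.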

How the results depend on the processing

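The count of 17 called genes was 18 with RLE size factors, 20 with upper-quartile scaling and 23 with limma-voom, and these 3 settings kept all 17. It was 30 without a filter, 27 with a stricter filter, 210 with DESeq2 (17 of 17 kept), 33 with an offset for transcript length (16 kept) and 6 with that offset and 17 libraries, the last 2 chosen after the data were seen. Leaving out each of the 6 libraries in turn gave 0 to 11 calls. It was 0 with no replicate block, 0 with no replicate block and 17 libraries, 0 with the 6 libraries alone and 0 tested against a fold of 1.5. The causes were not tested. For the difference between cultures, with 0 calls, DESeq2 gave 3 and each other setting 0. Scaling moved the median of all genes by less than 0.05.

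No reversed gene was a called one, but the settings share libraries and the called genes had 1 sign in all 3 pairs. With no replicate block and 17 libraries, CCN1 was at -0.05, CCND1 at -0.043, CENPF at -0.53, TOP2A at -0.18, TJP3 at 0.12 and CENPE at -1.38. With the 6 libraries alone, FOSB was at -0.16, FOS at -0.048 and CENPE at -0.06, and with limma-voom FOSB was at -0.14 and FOS at -0.04. With the length offset and 17 libraries, CCND1 was at -0.025, FLNA at 0.08, CENPF at -0.30 and CENPE at -0.81. Leaving out each library gave ranges of -0.042 to 1.44 for ATF3, -0.046 to 0.43 for CCN1, -0.08 to 0.45 for CDKN1A, -0.0096 to 0.30 for KRT5, -0.45 to 0.63 for FOSB, -0.06 to 0.14 for CCND1, -0.19 to 0.43 for FOS, -0.57 to 0.81 for CENPF, -0.011 to 0.86 for KLF4, -0.028 to 0.97 for TOP2A and -1.03 to 0.87 for CENPE. List medians moved by over 1 SD of their pair medians for 3 of 48 lists without the library labelled 2D timepoint 3 replicate 1. That SD includes pair 1, which holds this library, so a library that stands apart widens it. The count therefore cannot show that the other lists are stable without it. The median of the squamous differentiation list, for example, went from -0.24 to 0.14.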

Other observations

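The list of ribosome biogenesis genes with the MYC network was not described above. Of 28 tested, 24 had a log2 fold change above 0 (50.5% of all tested genes), 12 were higher at an unadjusted p under 0.05 (4.99%) and 7 were higher without overlap between timepoints (5.7%), with 0 called. Without the library labelled 2D timepoint 3 replicate 1, 22 were above 0 (48.1%) and 8 were higher at an unadjusted p under 0.05 (5.3%). The median was 0.21 (0.24 without that library), and 0.15, 0.24 and 0.30 in pairs 1, 2 and 3. NOP56, a core protein of small nucleolar ribonucleoproteins, was at 395, 381 and 481 CPM at timepoint 2 and 564, 442 and 637 CPM at timepoint 3. RRS1, a factor of the large ribosomal subunit, was at 10.9, 9.54 and 10.5 and then 13.5, 12.9 and 14.7 CPM, without overlap. In 3D culture the median was also 0.21.

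Gene families of called genes were looked up after those calls were known, and 5 were examined: tubulins, APOBEC3 genes, DNA ligase and Okazaki fragment processing, the RAN cycle, and thymidylate enzymes with the noncoding RNA TYMSOS. The called genes that led to each family are counted in it. The last 3 families had medians of 0.45, 0.22 and 0.46 (0.29, 0.16 and 0.39 without the library labelled 2D timepoint 3 replicate 1). In these, 12 of 13, 8 of 10 and 7 of 7 tested genes were above 0 with 18 libraries, against 50.5% of all tested genes. Of 15 tested tubulin genes, 13 had a log2 fold change above 0 (11 without that library), 10 were higher in all 3 pairs and the median was 0.37 (0.32 without that library). TUBG1, the gamma-tubulin of spindle poles, was at 21.4, 21.6 and 24.4 and then 32.9, 32.7 and 38.9 CPM, with an adjusted p of 0.0519 (0.129 without that library). TUBB3, a beta-tubulin known from neurons, differed by 0.027 (0.09 without that library). LIG1, the ligase of DNA replication, was at 42.5, 41.8 and 47.4 and then 68.7, 68.9 and 85.6 CPM, also with an adjusted p of 0.0519 (0.152 without that library). All 6 tested APOBEC3 genes, with APOBEC3B that led to the family, had a log2 fold change below 0 with and without that library. Of all 18111 tested genes, 8971 were below 0 with 18 libraries. APOBEC3B alone was called. Its timepoint 3 values of 0.932, 0.406 and 1.34 CPM were themselves near the floor. Of the others, 4 were near the floor over the 6 libraries. APOBEC3A was at 0 to 0.211 CPM, APOBEC3G at 0.0378 to 0.546, APOBEC3F at 0.441 to 1.09 and APOBEC3H at 0.328 to 1.22. APOBEC3C was at 21.9, 20.9 and 17 and then 16.8, 15.1 and 17.2 CPM. These genes lie side by side and are similar in sequence, so that the split of reads between them is uncertain.

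Of 15 tested replication-dependent histone genes none was called, with pair medians of -0.42, 0.69 and 0.41. H1-2 was at 3.12, 3.89 and 4.61 CPM and then at 2.33, 7.09 and 7.11 CPM.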
